A study of Homo sapiens with 6 samples.

Results

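The 36 genes examined here encode nucleolar proteins that build ribosomes: nucleolar chaperones, proteins of the box C/D and box H/ACA small nucleolar ribonucleoproteins, subunits and partners of RNA polymerase I, and assembly factors of the small and the large ribosomal subunit. They are a listed set, chosen by name with earlier results of these arrays known, and each was read from the probe set that the platform annotation gives its symbol alone, or from the brightest such probe set by mean over the 6 arrays. Of the 36, 25 had such a probe set among 14232 genes in all. None of the 25 had more than 1, so the brightness rule decided nothing. NPM1, whose only probe set of its own was dim, is described apart, and "the 24 genes" below are the others.

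RNA was taken from MO3.13 cells, an established human line labelled as oligodendroglioma. Klotho-treated cells (3 arrays) had been exposed for 3.5 h to recombinant mouse Klotho, the co-receptor for the hormone FGF23, at 0.4 µg/mL in DMEM without serum, and control cells (3 arrays) are described only by growth in DMEM with 10% fetal bovine serum. The labels name serum withdrawal for the treated cells alone, so the protein and the medium cannot be told apart in any difference below. They name no vehicle. Whether each array had its own culture is not stated either, and the p-values therefore measure a spread between samples that may be technical. In a bulk extract, fewer cells making a transcript and less of it per cell cannot be told apart. Array medians were 6.36 to 6.41 in treated and 6.38 to 6.47 in control cells on the log2 scale, and the arrays correlated at 0.985 to 0.991 over all probe sets. Of the defining oligodendrocyte markers with a probe set of their own, 9 of 10 were above 4.70, the first quartile of mean probe set signal and the mark used here for a dim one, and MOG was below it. Of the skeletal muscle markers, 7 of 8 were above that mark and MYF5 was below it. The mean level of the muscle markers was 8.45 to 8.47 in treated and 8.50 to 8.59 in control cells. That of the oligodendrocyte markers was 5.95 to 6.15 and 5.97 to 6.06, below the median of every array. The 4.70 mark is not a detection call. Of the other markers, 4 of 7 for astrocytes, 1 of 6 for neurons and 4 of 6 for microglia and blood cells were dim. The part of other cell types in the results was not tested.

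In the nucleolus, RNA polymerase I transcribes the ribosomal DNA into a long precursor, small nucleolar ribonucleoproteins guide its chemical modification, and a large assembly called the small subunit processome folds and cleaves it. Further factors then mature the small and large subunits and bring them to the cytoplasm. The supply of these factors is known to follow growth signals, and many of their genes are textbook targets of the transcription factor MYC, which binds the E-box motif CACGTG.

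The promoters of the listed genes were searched for that motif. In windows from 250 bases before to 50 bases after the annotated transcription start (RefSeq, GRCh38.p14), CACGTG, which reads alike on both strands, occurred for 14 of the 29 listed genes with a window (48.3%), against 11.3% of 11155 protein-coding genes measured on the arrays. Among windows with a GC content of 60% or more the shares were 47.4% of 19 listed genes and 12.0% of 7732. Counted from the annotated start, with negative positions upstream, the 14 sites of the listed genes began between positions -31 and 35, with a median of 6. Of the 1521 sites in measured protein-coding genes 24.3% began in that range, and their median position was -75. The range was set by the listed genes' own sites, and no test was made of it. The motif CCGGAAG, the core bound by ETS family factors and searched on both strands, was in 9 of the 29 (31.0%), against 17.1% of the measured protein-coding genes. A match of letters is a description and no evidence that a factor binds there.

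**Figure D1:**
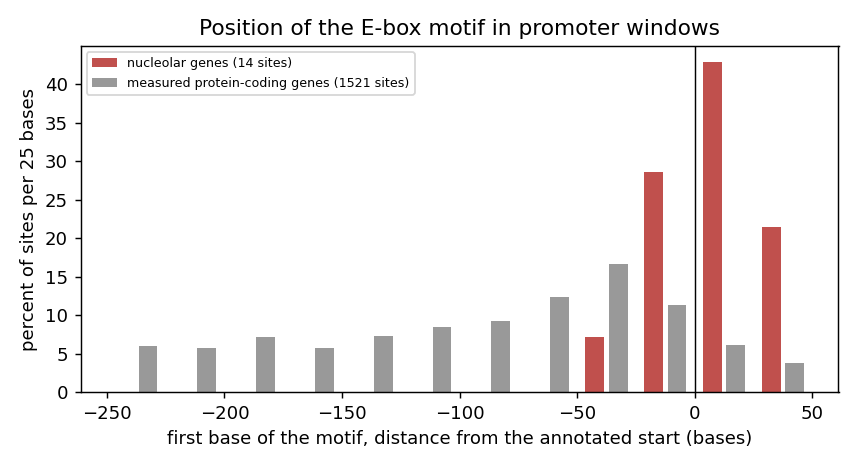
Percent of CACGTG sites per 25 bases of promoter window, by distance of the motif's first base from the annotated start, for the listed nucleolar genes (red, 14 sites) and for protein-coding genes measured on the arrays (grey, 1521 sites). The red sites begin between positions -31 and 35, where 24.3% of the grey ones do.

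Windows of 6 genes are printed as examples: genes with the lowest differences or groups apart that have a window, and FBL (difference 0.00). They run 5′ to 3′ on the gene's strand, with CACGTG and CCGGAAG matches (either strand) in capitals. NOP14, at chr4:2963357-2963656 (minus strand), has the E-box at position 15. UTP20, at chr12:101279855-101280154 (plus strand), has it at position -10, and BYSL, at chr6:41921249-41921548 (plus strand), at position 28, in a window 12740 bases inside the gene's outer annotated end. FBL, at chr19:39846330-39846629 (minus strand), has it at position 6, with CCGGAAG at -193. POLR1B, at chr2:112541786-112542085 (plus strand), has CCGGAAG alone, at -126, and NPM1, at chr5:171386866-171387165 (plus strand), has neither in this window.
NOP14: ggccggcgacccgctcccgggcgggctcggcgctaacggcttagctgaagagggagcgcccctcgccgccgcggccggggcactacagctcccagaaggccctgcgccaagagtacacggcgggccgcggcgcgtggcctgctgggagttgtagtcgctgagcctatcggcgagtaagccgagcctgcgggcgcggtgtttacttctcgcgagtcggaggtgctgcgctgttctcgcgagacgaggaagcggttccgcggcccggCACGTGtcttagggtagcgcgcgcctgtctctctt
UTP20: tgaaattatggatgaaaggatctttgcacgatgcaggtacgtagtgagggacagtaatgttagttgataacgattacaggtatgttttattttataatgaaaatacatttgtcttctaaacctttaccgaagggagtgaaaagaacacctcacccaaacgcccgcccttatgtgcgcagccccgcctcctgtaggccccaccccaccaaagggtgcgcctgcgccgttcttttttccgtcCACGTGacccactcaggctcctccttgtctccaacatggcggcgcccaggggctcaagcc
BYSL: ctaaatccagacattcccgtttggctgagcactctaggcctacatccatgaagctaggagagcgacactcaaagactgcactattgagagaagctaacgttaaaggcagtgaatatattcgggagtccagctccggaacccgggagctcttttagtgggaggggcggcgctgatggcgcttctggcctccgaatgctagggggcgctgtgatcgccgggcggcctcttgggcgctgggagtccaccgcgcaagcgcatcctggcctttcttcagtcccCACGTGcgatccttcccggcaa
FBL: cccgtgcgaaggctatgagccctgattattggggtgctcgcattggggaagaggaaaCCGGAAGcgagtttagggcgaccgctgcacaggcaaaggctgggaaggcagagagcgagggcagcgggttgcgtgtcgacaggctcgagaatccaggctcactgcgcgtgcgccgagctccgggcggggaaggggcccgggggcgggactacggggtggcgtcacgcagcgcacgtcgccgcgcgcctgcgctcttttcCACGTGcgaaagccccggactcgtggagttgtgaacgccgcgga
POLR1B: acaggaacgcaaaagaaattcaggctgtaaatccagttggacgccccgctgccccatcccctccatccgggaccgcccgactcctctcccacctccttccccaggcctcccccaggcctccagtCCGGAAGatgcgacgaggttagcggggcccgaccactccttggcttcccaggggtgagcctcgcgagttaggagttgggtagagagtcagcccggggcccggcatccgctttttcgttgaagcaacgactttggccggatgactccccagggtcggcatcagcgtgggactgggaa
NPM1: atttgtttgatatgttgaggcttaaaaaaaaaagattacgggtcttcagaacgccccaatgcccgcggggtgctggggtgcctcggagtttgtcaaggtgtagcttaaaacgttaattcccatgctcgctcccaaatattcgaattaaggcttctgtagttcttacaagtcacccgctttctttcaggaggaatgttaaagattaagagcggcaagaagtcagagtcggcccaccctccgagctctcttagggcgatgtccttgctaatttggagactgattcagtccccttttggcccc

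No member passed the adjusted threshold between Klotho-treated and control cells. Of the 22011 probe sets fitted together with limma, 0% had a Benjamini-Hochberg adjusted p under 0.05, and the adjusted p of the 24 genes was 0.998 to 1.00. Without adjustment, 0 of the 24 had a p under 0.05 in either direction, where 1.11% of all genes were lower and 0.963% higher. The 95% interval lay within a 1.5-fold change for 22 of the 24 genes (91.7% of all genes) and within 2-fold for all 24 (98.7% of all genes). BYSL and UTP20 were the genes whose interval reached past 1.5-fold, each on the lower side.

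As deposited, 18 of the 24 genes had a lower mean in treated cells and 6 a higher one, with a median log2 difference of -0.07. Most genes on these arrays leaned the same way: 62.6% of all 14232 were lower, with a median of -0.03, and 68.1% of those that were not dim, with a median of -0.04. With each array centred on its median, 14 of the 24 were lower, against 42.7% of all genes, and with quantile normalization or cyclic loess 16 were, against 46.8% and 50.3%. The median of the 24 was then -0.02 with centring and -0.03 with each of the other scalings. A shift of the whole list was not tested, since the list was chosen with these results known.

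**Figure D2:**
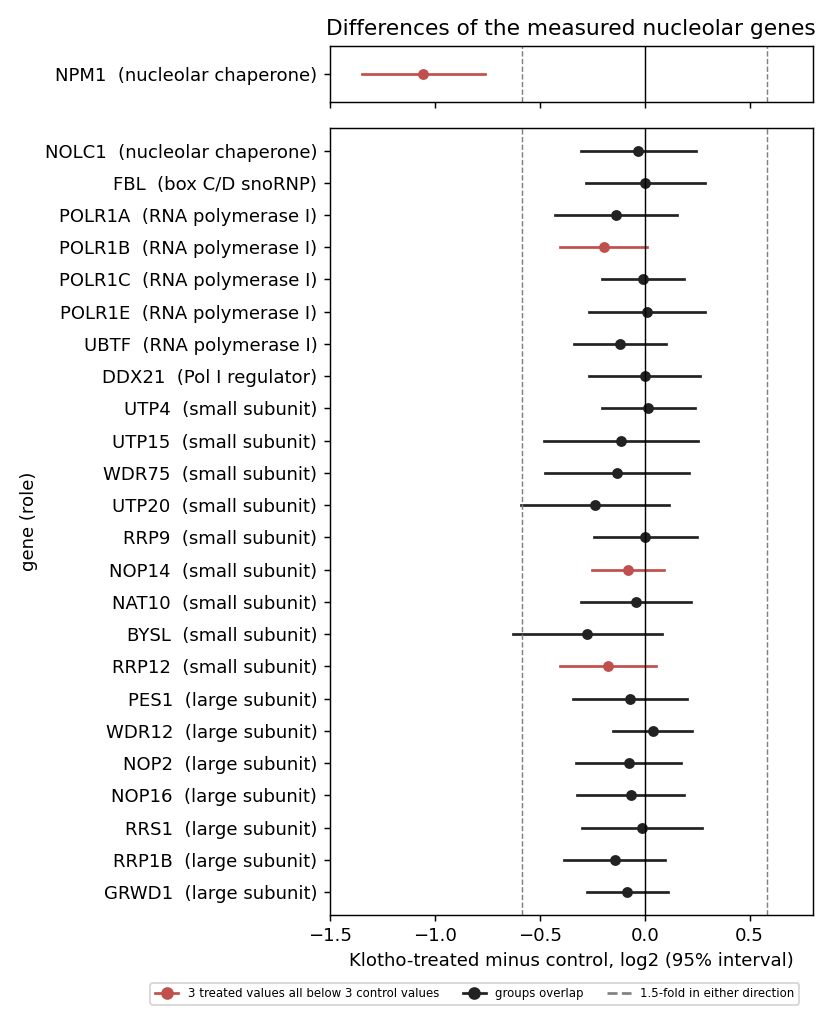
Klotho-treated minus control difference (log2) of each measured gene with its 95% interval from limma (3 arrays per group), NPM1 in the upper panel and the 24 others below, and dashed lines at a 1.5-fold change. Red marks genes whose 3 treated values all lay below the 3 control values, and apart from NPM1 the intervals of all 24 genes include 0.

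NPM1 encodes nucleophosmin, an abundant nucleolar chaperone that shuttles to the cytoplasm, and its probe set gave the widest separation of the groups among the 25. It read 2.36, 2.39 and 2.24 (log2) on the treated arrays, against 3.40, 3.17 and 3.58 on the control arrays. Every treated value lay below every control value, and all 6 lay below 4.70. The means were 2.33 ± 0.08 in treated and 3.38 ± 0.21 in control cells (SD, n = 3 each). The difference was -1.05 (95% interval -1.35 to -0.76) on the log2 scale, with a limma adjusted p of 0.395. No fold is given, since the probe set is not shown to be above background in either group. An exact 2-sided permutation test over the arrays gave p = 0.10, the smallest that 3 against 3 allows. The values stayed apart under each of the 3 other scalings, and the adjusted p was 0.084 when the fit held only probe sets with 1 gene symbol. Another 2 probe sets pair NPM1 with CLEC2D or LMBRD1 and are not used here. The genome also holds processed copies of NPM1 of near-identical sequence, so this value is uncertain as a measure of its transcript.

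Among the other chaperones, NOLC1, which escorts small nucleolar ribonucleoproteins, read 10.29, 10.48 and 10.52 on the treated arrays, against 10.65, 10.37 and 10.37 on the control arrays. The groups overlapped, with control array 1 highest and the other 2 controls inside the treated range, and the difference was -0.03 (95% interval -0.30 to 0.24). NCL, nucleolin, shares its probe set with 3 small RNAs and is not reported.

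FBL, the ribose methyltransferase fibrillarin of the box C/D particles, read 9.83, 9.88 and 9.81 on the treated arrays, against 9.99, 9.60 and 9.91 on the control arrays. Its treated values sat inside the control range, with a difference of 0.00 (95% interval -0.28 to 0.29). NOP56, NOP58 and the pseudouridine synthase gene DKC1 are annotated only together with the small RNA genes they host, and NHP2 had no listed probe set, so 1 of the 5 box C/D and box H/ACA genes was measured.

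RNA polymerase I was represented by 5 of its 6 listed genes, of which 4 were lower and 1 higher in treated cells (median -0.12). The median was -0.05 without control array 2, -0.06 without treated array 1 and -0.18 without treated array 3. POLR1B, which with POLR1A forms the catalytic centre, read 8.24, 8.29 and 8.40 on the treated arrays, against 8.42, 8.59 and 8.51 on the control arrays. The groups did not overlap, but treated array 3 and control array 1 lay 0.02 apart. Its difference of -0.20 (95% interval -0.40 to 0.01) had the smallest unadjusted p of the 24 (limma, 0.0622, adjusted p = 0.998). UBTF, which binds the ribosomal DNA and keeps it open for the polymerase, read 8.32, 8.43 and 8.56 on the treated arrays, against 8.62, 8.52 and 8.52 on the control arrays. Treated array 3 was above 2 of the controls, and the difference was -0.12 (95% interval -0.34 to 0.10), or -0.06 without treated array 1 and -0.18 without treated array 3. POLR1C, a subunit shared with RNA polymerase III, read 9.51, 9.43 and 9.40 on the treated arrays, against 9.44, 9.38 and 9.54 on the control arrays, a difference of -0.01 (95% interval -0.20 to 0.19). The catalytic subunit gene POLR1A differed by -0.14, or by -0.23 without control array 1, -0.05 without control array 2 and -0.06 without treated array 1. The difference of POLR1E, an accessory subunit of this polymerase, was 0.01, and it ran from -0.06 without control array 3 to 0.13 without control array 1. With centring, quantile normalization or cyclic loess, 3 of these 5 genes were lower, with medians of -0.07, -0.06 and -0.06. RRN3, the initiation factor that recruits the polymerase, is annotated together with its pseudogenes and is not reported.

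Of the listed regulators, DDX21, an RNA helicase that acts on both polymerase I transcription and precursor processing, read 10.52, 10.71 and 10.79 on the treated arrays, against 10.69, 10.79 and 10.54 on the control arrays. The groups covered nearly the same range, and the difference was 0.00 (95% interval -0.26 to 0.26). MYBBP1A shares its probe set with a neighbouring gene and is not reported.

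Small subunit assembly was measured through 9 of 11 listed genes, 7 lower and 2 higher (median -0.11). The same split, 7 and 2, was found with quantile normalization and cyclic loess, and 6 and 3 with centring, but the median was -0.06 under each of the 3. Leaving out treated array 1 gave a median of -0.04, leaving out treated array 2 gave -0.07, and leaving out treated array 3 gave -0.21. BYSL, the late assembly factor bystin, had the lowest difference of the 24: it read 7.56, 7.19 and 7.35 on the treated arrays, against 7.88, 7.44 and 7.60 on the control arrays. Treated array 1 lay above control array 2, so the groups overlapped, and the difference was -0.27 (95% interval -0.63 to 0.08). It was -0.16 without control array 1. RRP12, needed for export of the new subunits, read 7.87, 8.08 and 8.08 on the treated arrays, against 8.27, 8.15 and 8.13 on the control arrays. Its groups did not overlap, and the difference was -0.17 (95% interval -0.40 to 0.06), or -0.10 without treated array 1. NOP14, a processome component, read 8.44, 8.44 and 8.52 on the treated arrays, against 8.55, 8.55 and 8.54 on the control arrays. The controls were nearly identical (SD 0.0054), the groups did not overlap, and the difference was -0.08 (95% interval -0.25 to 0.09).

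UTP20, a scaffold-like processome protein, differed by -0.24 (95% interval -0.59 to 0.11), with treated values of 8.14 to 8.62 and control values of 8.47 to 8.77. Its difference was -0.11 without treated array 1. WDR75 and UTP15, which belong to the subcomplex that joins the precursor while it is still being transcribed, differed by -0.13 and -0.11, and UTP4 of the same subcomplex by 0.02. Single arrays carried much of this: without treated array 1 the difference was -0.01 for WDR75 and -0.04 for UTP15, without treated array 3 it was -0.25 and -0.24, and without control array 1 it was -0.02 for UTP15. Without control array 2 it was -0.08 for WDR75 and -0.21 for UTP15, and without treated array 2 it was -0.05 for UTP15. RRP9, a core protein of the particle that guides the first cleavages, read 9.18, 9.19 and 9.05 on the treated arrays, against 9.13, 9.00 and 9.29 on the control arrays, and its difference was 0.00 (95% interval -0.24 to 0.25). NAT10, the acetyltransferase of ribosomal RNA, differed by -0.04, and by 0.06 without control array 1. WDR43 and PNO1 had no probe set of their own.

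Large subunit assembly was measured through 7 of 9 listed genes, 6 lower and 1 higher (median -0.07), and 5 were lower under each of the 3 other scalings, with medians of -0.03 to -0.02. Without control array 1, 4 were lower and 3 higher (median -0.00), without treated array 1 likewise 4 and 3 (median -0.04), and without control array 2 all 7 were lower (median -0.12). RRP1B, a nucleolar processing factor, read 8.84, 8.98 and 9.07 on the treated arrays, against 9.23, 9.08 and 9.01 on the control arrays, with a difference of -0.14 (95% interval -0.38 to 0.10), or -0.08 without control array 1 and -0.08 without treated array 1. GRWD1, a chaperone of a newly made ribosomal protein, read 8.13, 8.25 and 8.17 on the treated arrays, against 8.32, 8.19 and 8.29 on the control arrays, with a difference of -0.08 (95% interval -0.27 to 0.11). In both genes the groups overlapped through 1 control array. RRS1, which helps to place an RNA-protein block into the young subunit, read 8.56, 8.70 and 8.71 on the treated arrays, against 8.72, 8.45 and 8.84 on the control arrays, with a difference of -0.01 (95% interval -0.30 to 0.27). PES1 and WDR12, which with BOP1 form a complex of precursor processing, differed by -0.07 and 0.04. The ribosomal RNA methyltransferase gene NOP2 differed by -0.08 and the assembly factor gene NOP16 by -0.07. The difference of PES1 was 0.03 without control array 1 and -0.15 without control array 2, that of NOP2 was -0.00 and -0.14, and that of NOP16 was 0.00 without treated array 1 and -0.15 without treated array 3. WDR12 was at 0.08 without control array 3 and at -0.00 without control array 2. BOP1 and GNL3 had no probe set of their own.

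Apart from NPM1, the genes whose groups did not overlap were POLR1B, NOP14 and RRP12, all lower in treated cells. They are 3 of 24, where 5.30% of all genes did so in that direction and 2.59% in the other. The separation depended on the scaling: with each array centred on its median, with quantile normalization and with cyclic loess, 0 of the 24 had groups apart on the lower side, against 2.14%, 2.71% and 3.27% of all genes.

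The arrays did not contribute equally. Control array 1 held the highest of the 6 values for 14 of the 24 genes (58.3%, against 33.8% of all genes), and treated array 1 the lowest for 14 (58.3%, against 28.5%). The shares over all genes include dim genes, and the 24 hold none. The mean deviation of the 24 genes from their own averages was -0.12, -0.04 and 0.03 on the treated arrays, against 0.12, -0.02 and 0.03 on the control arrays. Treated array 3 stood level with control array 3 and above control array 2. The SD among arrays was 0.074 in treated and 0.071 in control cells, close to the difference of the group means (-0.08). Over all genes the same arrays stood lowest and highest, with -0.04 on treated array 1 and 0.05 on control array 1. Without control array 1, 15 of the 24 genes were lower with a median of -0.01, and without treated array 1, 15 were lower with a median of -0.04. Without control array 2, the lowest control for this list, 23 were lower with a median of -0.11.

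**Figure D3:**
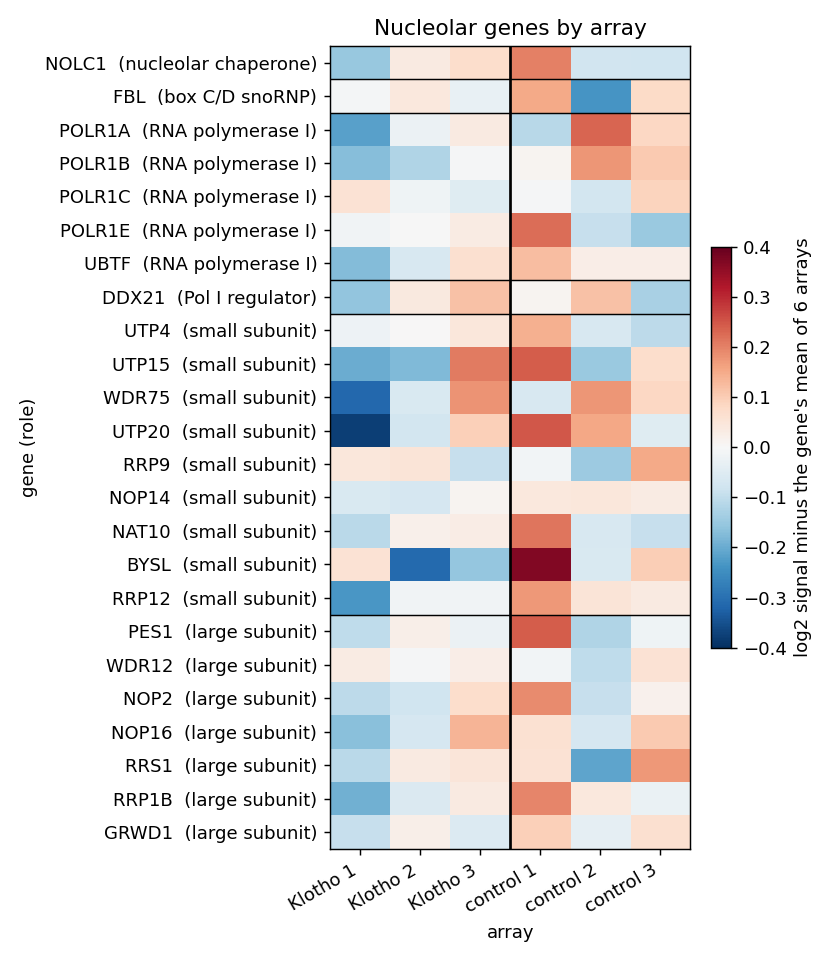
Log2 signal of the 24 nucleolar genes on each array, as the deviation from the gene's own mean over 6 arrays (blue lower, red higher), treated arrays on the left and control arrays on the right, ordered by role. Treated array 1 is the lowest for 14 genes and control array 1 the highest for 14.

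How far the 24 genes went up and down together was read from their pairwise correlations. As deposited, the mean over pairs across the 6 arrays was 0.31, against 0.05 over all genes, and 0.28 against 0.04 with the group means removed. With centring the mean among the 24 was 0.06, with quantile normalization 0.00 and with cyclic loess 0.01. Over all genes it was 0.01, 0.01 and 0.00 under the same scalings. These correlations describe 6 arrays that share a scale. All genes here include 2923 dim ones, and the 24 include none. No such mean was computed for the genes that were not dim.

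**Figure D4:**
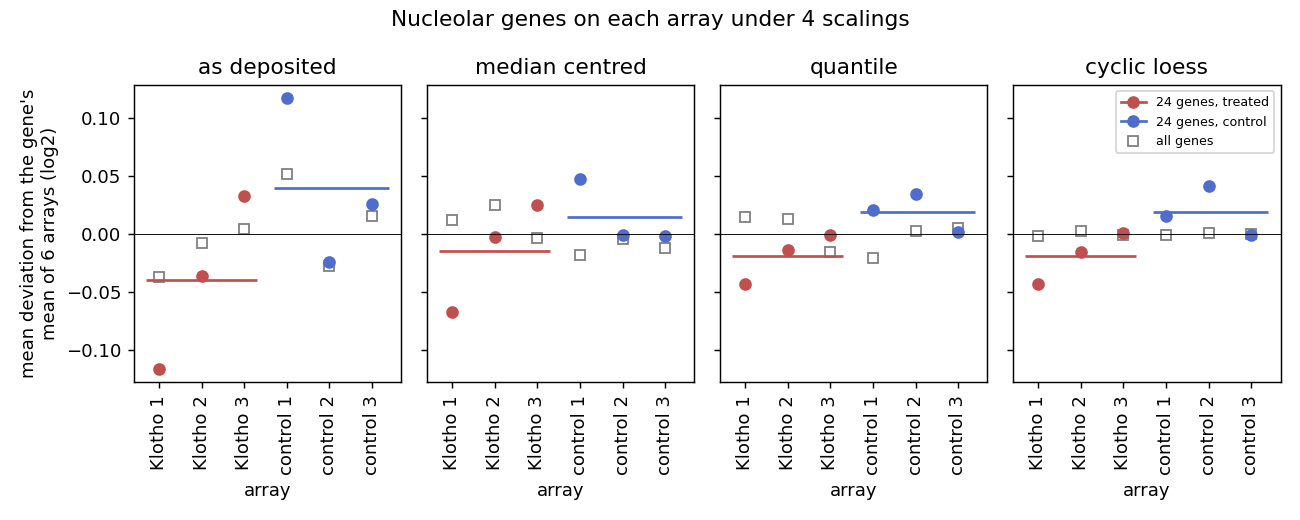
Mean deviation (log2) of the 24 nucleolar genes from their own averages on each array, under the deposited scale and 3 other scalings, with treated arrays in red on the left, control arrays in blue on the right, lines at the group means and open squares for all genes. As deposited the values run from -0.12 on treated array 1 to 0.12 on control array 1, and the spread narrows under each of the other scalings.

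The difference was also set beside the promoter motifs. The 10 measured genes with CACGTG in a window (NPM1 apart) had a median difference of -0.05, with 6 of 10 lower, and the 9 without it -0.11, with 8 of 9 lower. BYSL and UTP20 carry CACGTG and FBL carries it too, with differences of -0.27, -0.24 and 0.00. By CCGGAAG, the 8 genes with it had a median of -0.003, with 4 of 8 lower. The 11 without it had a median of -0.11, with 10 of 11 lower. No test was made of either split.

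Other genes of ribosome production were read from lists of the same roles. Of 93 measured nucleolar factors outside the list (114 were looked for), 70 were lower and 23 higher, with a median of -0.05, against 62.6% lower among all genes. Under each of the 3 other scalings 51 were lower, with a median of -0.01. Without control array 1 the count was 51 as well, and without control array 2 it was 86. None passed the adjusted threshold in limma, and 0 had an unadjusted p under 0.05. On the deposited scale 1 of the 93 had groups apart on the lower side, where 5.30% of all genes did. Among 11 further polymerase I genes, 9 were lower: POLR2L, a small subunit shared by the nuclear polymerases, differed by -0.33 (95% interval -0.67 to 0.01) and TAF1A, of the promoter selectivity factor, by 1.14 (95% interval -0.22 to 2.51). TAF1A read 5.96, 5.87 and 4.21 on the treated arrays, against 3.34, 4.59 and 4.68 on the control arrays, so the groups overlapped and its spread was wide. Its difference was 0.71 without control array 1. Of 38 other small subunit factors 30 were lower (RIOK1 by -0.18 and BMS1 by -0.20), of 32 other large subunit factors 24 (DDX55 by -0.20, with its groups apart, and MRTO4 at 0.24), and of 12 other small nucleolar ribonucleoprotein genes 7 (ZNHIT6 by -0.10 and RUVBL1 by -0.06). The last count was 2 without control array 1 and 11 without control array 2. The median of each of the 4 lists moved by over 1.5 times when control array 1 was left out, to between -0.02 and 0.03.

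Ribosomal protein genes, whose transcripts feed the same assembly line, leaned the other way by count and median alone. In treated cells 17 of 26 measured genes were higher and 9 lower (median 0.02), against 62.6% lower among all genes. The mean difference of the 26 was -0.02, close to the -0.03 of all genes. Under the 3 other scalings 17 to 20 were higher. Only 26 of 79 had a probe set of their own. RPL41 differed by -0.62 (95% interval -1.17 to -0.08, limma adjusted p = 0.998), or by -0.21 as the mean of its 2 probe sets, and RPL22 by 0.18. The split turned with single arrays: 19 of the 26 were lower without control array 2, 14 without treated array 2 and 13 without treated array 1. Of the 17 listed genes that host small nucleolar RNAs, 0 had a probe set of their own.

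MYC itself read 9.41, 9.32 and 9.36 on the treated arrays, against 9.36, 9.29 and 9.41 on the control arrays, with a difference of 0.01 (95% interval -0.17 to 0.19). MYCN, its relative, read 8.42, 8.03 and 7.70 on the treated arrays, against 7.72, 7.45 and 7.35 on the control arrays. Its values overlapped narrowly, treated array 3 against control array 1, and the difference was 0.54 (95% interval 0.07 to 1.01, limma adjusted p = 0.998), or 0.31 as the mean of its 2 probe sets and 0.36 without treated array 1. RPTOR, the scaffold of the mTOR complex that drives ribosome production, differed by -0.17, with its groups apart. Of 12 measured growth regulators of the nucleolus, 7 were lower and 5 higher, with 5 lower without control array 1 and 5 under centring. On the deposited scale 2 of the 12, RPTOR among them, had groups apart on the lower side, where 5.30% of all genes did. Genes of the p53 and nucleolar stress response, which is set off when ribosome assembly is disturbed, were 7 lower and 8 higher among 15 measured (median 0.00), with CDKN1A at -0.12 and XPC at -0.10. Without control array 2, 13 of the 15 were lower with a median of -0.08, and without treated array 3 or with array quality weights 10 were. None of these passed the adjusted threshold in limma.

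**Figure D5:**
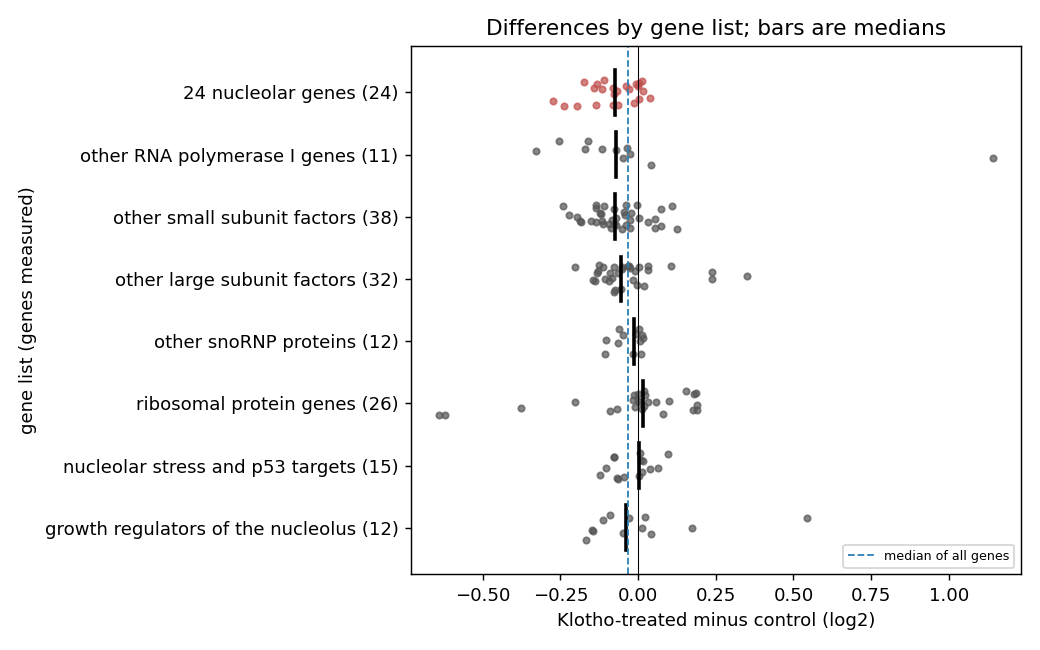
Klotho-treated minus control difference (log2) of each measured gene in the 24 nucleolar genes (red) and 7 other lists (grey), with black bars at the medians and a dashed line at the median of all genes. The medians of the 24 genes and of the polymerase I and small subunit lists are all close to -0.07, and that of the ribosomal protein genes is 0.02.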

How the data were processed

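The authors deposited 1 table of log2 signals with a row per probe set. RMA is the method that the submitters' processing notes name, without a version. Per the labels' protocols, biotinylated cDNA was made from 100 ng of total RNA by NuGEN amplification. The sources used here give no other software, filter, detection call or scan batch. Genes were named from the platform annotation, only for probe sets with 1 symbol (14432 of 22011).

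All 22011 probe sets were fitted together by lmFit and eBayes of limma 3.58.1 (R 4.3.3, 2-sided, Benjamini-Hochberg adjustment, threshold 0.05), and the members' values were read from that fit. The number of arrays limits the precision. Values on every array are given for NPM1, for genes whose groups do not overlap and, per role, for the 2 genes with the smallest p and the gene nearest to 0; of other lists the 2 genes with the smallest p are named, and MYC. The genes, lists and tests were chosen with earlier results of these data known. Protein sequences were not used here.

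Alternatives were 3 other scalings, a filter on dim probe sets, fewer features, other variance models, the replicate number as a block, means over probe sets and leaving out each array.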

Additional observations from a re-analysis of the deposited data

How the results depend on the processing

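Over 15 alternatives the count of members past the adjusted threshold was 0 in each, as was that of the other pathway genes. In treated cells 14 to 23 of the 24 genes were lower, with a median difference between -0.11 and -0.01. Some alternatives could not move that count or median, because they leave the members' differences unchanged. These were the filter on dim probe sets, the 1-symbol fit, the variance model with an intensity trend, the block and the means over probe sets. Leaving out 1 array at a time gave 15 to 23 lower, a median of -0.11 to -0.01 and an NPM1 difference of -1.16 to -0.96. The adjusted p of NPM1 ran from 0.084 with 1-symbol probe sets alone to 1.00 with the replicate block, and its probe set was left out by the filter on dim probe sets. Of the 13 other genes given on every array, 7 kept their sign in all alternatives (POLR1B, NOP14, RRP12, BYSL, UBTF, RRP1B and GRWD1) and 6, all with differences within 0.03 of 0, changed it in some. The 13 were picked from these same data by small p, separated groups or nearness to 0, so this split largely follows from the choice. Signs were not counted over all alternatives for the other members. Of these, NAT10, PES1, POLR1E, UTP4, WDR12 and NOP16 changed theirs when a single array was left out. The replicate numbers did not pair the arrays: same-numbered deviations correlated at -0.18, 0.06 and -0.14 over all probe sets, and treated array 3 went best with control array 1 (0.24). With the numbers as a block, 0 members passed. The count of 18 lower could not change there, since a balanced block leaves the group differences as they were. Array quality weights gave 19 lower, with 0 past the adjusted threshold. An unadjusted limma p under 0.05 was found there for 2 of the 24 (POLR1B and BYSL) and for 782 of all 14232 genes. The main fit had 295 such genes. POLR1B also had such a p without control array 1 and without treated array 3, and BYSL with the block. Among all 14232 genes 233, 525 and 180 had one in those fits, in that order. The NPM1 probe set is dim, so its signal over background is a limit.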
